A study of Mus musculus with 48 samples.

Results

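Semaphorins, plexins and neuropilins were followed through the differentiation of C2C12, an established mouse myoblast line that fuses into myotubes when serum is lowered. Members were the genes whose symbol in the annotation of the array's probe sets named a semaphorin of classes 3 to 7, a plexin of families A to D, Nrp1 or Nrp2. They came to 31 of the 18193 genes measured: 7 secreted semaphorins (Sema3a to Sema3g), 12 transmembrane semaphorins (Sema4a, Sema4b, Sema4c, Sema4d, Sema4f, Sema4g, Sema5a, Sema5b, Sema6a, Sema6b, Sema6c and Sema6d), the membrane-anchored Sema7a, 9 plexins and 2 neuropilins. Each gene was read by 1 probe set, the one with the highest mean over the 48 arrays, and no measured difference entered the choice.

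Total RNA from 16 groups of 3 cultures, grown in separate plates and harvested from successive passages, was hybridised to Affymetrix MOE430v2 expression arrays. Cells of 2 groups received 50 µM cycloheximide, an inhibitor of protein synthesis, from 1 h before induction and were harvested at 1 h and at 3 h of differentiation. Cells of the other groups had no drug and were harvested in growth medium with 20% fetal bovine serum at 24 h before induction (written −24 h) and at 0 h, and in differentiation medium with 2% horse serum at 0.5, 1, 1.5, 2, 3, 6, 9, 12, 24, 48, 96 and 144 h. All cells were C2C12, so the data describe 1 line in culture without the nerve, vessel and other partner cells of muscle. Time in culture and time since the change of medium cannot be told apart along the course.

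Semaphorins are cues that repel or attract growing axons, vessels and migrating cells, and plexins are their receptors, whose intracellular part acts on the cytoskeleton and on cell adhesion. The secreted class 3 proteins mostly bind a neuropilin, which lends them affinity for a class A plexin, while Sema3e can bind Plxnd1 without a neuropilin, and neuropilins also bind vascular endothelial growth factors. In muscle, Sema3a is known as a factor that activated satellite cells, the stem cells of the fibre, release, and Sema4c has been tied to the differentiation of C2C12 cells.

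Values are RMA levels on the log2 scale, on which a step of 1 is a factor of 2. Levels of different genes come from different probes and are not ranked against each other. A gene is called changed at a Benjamini-Hochberg adjusted p under 0.05 over all 18193 genes in limma, with 1 model over the 48 arrays. Every adjusted p comes from that model unless another setting is named, and every comparison with 0 h shares the same 3 arrays of 0 h. Arrays of a group correlated at 0.9835 to 0.9958, no arrays were identical, and array medians were 4.20 to 4.24 with cycloheximide and at most 4.16 without. At 144 h against 0 h, 8 of 9 measured genes of a check list were called, with Ckm, the muscle creatine kinase, higher by 5.66 and the proliferation marker Mki67 lower, at −3.17. The 3 shared arrays of 0 h were uneven in muscle genes of that list. Replicates 1, 2 and 3 read 11.42, 9.32 and 9.71 for Myog and 7.06, 4.65 and 6.02 for Myh3. Mki67 was less uneven, at 9.11, 9.33 and 9.58. All 8 myoblast and myotube markers were above background, while all 6 endothelial and all 3 measured adipocyte markers stayed like it, as did 2 of 4 neuron and Schwann cell markers (not Tubb3 and Sox10) and 4 of 6 leukocyte markers (not Cd3e and Csf1r). Background here is the 95th percentile, 4.41, of the mean levels of 86 probe sets for smell, taste and pheromone receptors. The highest group mean was below it for 4 members, Plxnc1, Sema4a, Sema4g and Sema5b, and above it for 27. In these bulk cultures, fewer cells of a kind and less RNA per cell cannot be told apart.

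No member was called in the first 6 h of differentiation, and most calls came at 48 h and later. An F-test over the 12 differentiation times against 0 h called 17 of 31 members, against 38.2% of all genes. At 0.5, 1, 1.5, 2, 3 and 6 h, with 0 members called, 0.0385%, 0.192%, 0.423%, 0.517%, 0.39% and 0.506% of all genes were called, and the number of members at an unadjusted p under 0.05 at those times was 0, 1, 3, 0, 2 and 7. In a fit that keeps same-numbered arrays together as blocks, 1 member, Sema4c, was called lower at 1 h and at 1.5 h. At 6 h that fit called 2 members, Plxnb2 and Plxnd1, both lower. At 9 h and at 12 h 1 member, Sema6d, was called lower, against 1.36% and 2.82% of all genes called and 0.61% and 1.63% called lower. With the block 2 members were called at 9 h (1 higher, Plxna1, and 1 lower) and 4 at 12 h (2 higher, Plxna1 and Plxna2, and 2 lower, Sema6d and Plxnd1).

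At 24 h the count was 3 members, 1 higher and 2 lower, against 14% of all genes, 6.56% higher and 7.42% lower (6 members with the block). At 48 h it was 12, of which 9 fell and 3 rose, against 26.7% of all genes, 14.3% lower and 12.4% higher. At 96 h 13 members were called, 10 of them lower, against 32.6% (17.1% lower and 15.5% higher), and at 144 h 12, again 10 lower, against 28.4% (14.9% lower and 13.5% higher). The median difference at 144 h was −0.09 over the 31 members and 0.04 over all genes tested.

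**Figure D1:**
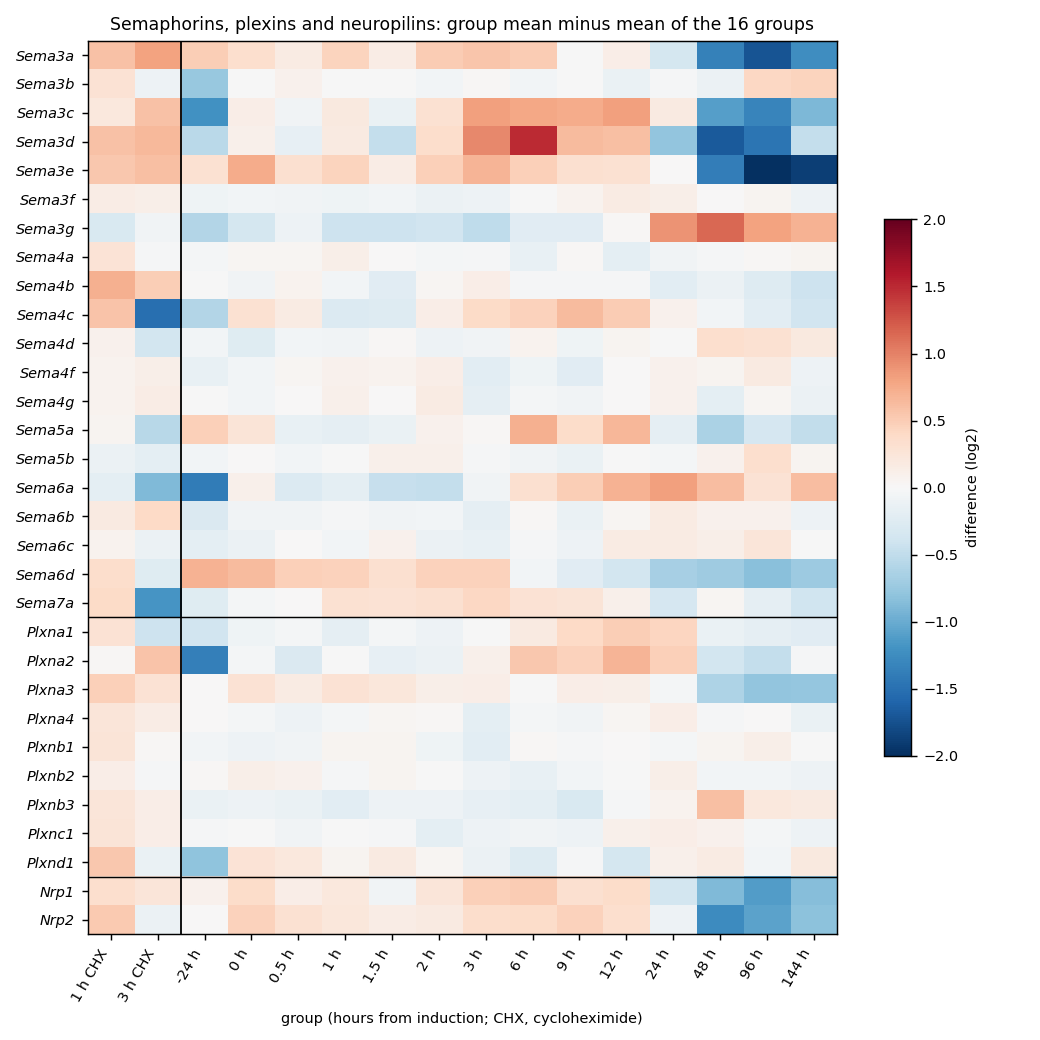
Each of the 31 members is a row and each of the 16 groups a column, and colour shows the group's mean level minus the gene's mean over the 16 groups, in log2 units. Sema3a, Sema3c, Sema3d, Sema3e, Nrp1, Nrp2 and Plxna3 turn blue at 48 h and 96 h, Sema3g turns red from 24 h, and Sema4c and Sema7a are lowest at 3 h with cycloheximide (CHX).

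The secreted semaphorins split. Sema3a, Sema3c, Sema3d and Sema3e fell at 48 h and at 96 h against 0 h, Sema3g rose from 24 h, and Sema3b and Sema3f were called at no time against 0 h. In the mouse genome (GRCm38.p6) the 4 genes that fell lie on chromosome 5 in the order Sema3d, Sema3a, Sema3e and Sema3c, with other genes among them. Sema3b and Sema3f are on chromosome 9 and Sema3g is on chromosome 14. The 250 bases before the start of each gene that moved are printed here from RefSeq because these genes move together or in opposite ways. They were searched for CAGCTG and CACCTG, which are E-boxes of the kind bound by MyoD and by repressors of the Snail and ZEB families, and for TTTGGCGC, an E2F site, on both strands. Matches are in capitals.
Sema3d, chr5:12382916-12383165, plus strand: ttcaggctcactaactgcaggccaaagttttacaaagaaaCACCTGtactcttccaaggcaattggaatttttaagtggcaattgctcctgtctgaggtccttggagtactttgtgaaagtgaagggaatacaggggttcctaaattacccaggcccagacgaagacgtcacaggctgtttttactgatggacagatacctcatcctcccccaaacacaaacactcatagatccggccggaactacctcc
Sema3a, chr5:13396534-13396783, plus strand: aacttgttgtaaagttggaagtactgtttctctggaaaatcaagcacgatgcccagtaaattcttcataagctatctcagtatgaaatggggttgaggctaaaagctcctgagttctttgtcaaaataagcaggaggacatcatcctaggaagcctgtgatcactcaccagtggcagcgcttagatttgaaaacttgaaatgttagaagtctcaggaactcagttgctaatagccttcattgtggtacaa
Sema3e, chr5:14025026-14025275, plus strand: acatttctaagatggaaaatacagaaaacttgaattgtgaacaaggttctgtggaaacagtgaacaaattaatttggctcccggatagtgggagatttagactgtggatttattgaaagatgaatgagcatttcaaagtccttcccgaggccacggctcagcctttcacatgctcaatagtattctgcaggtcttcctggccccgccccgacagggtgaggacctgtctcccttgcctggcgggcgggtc
Sema3c, chr5:17574566-17574815, plus strand: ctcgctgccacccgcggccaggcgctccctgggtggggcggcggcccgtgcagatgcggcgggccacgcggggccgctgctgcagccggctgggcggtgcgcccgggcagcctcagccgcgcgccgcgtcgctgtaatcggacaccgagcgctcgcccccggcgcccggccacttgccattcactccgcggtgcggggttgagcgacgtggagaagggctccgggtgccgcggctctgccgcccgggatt
Sema3g, chr14:31217623-31217872, plus strand: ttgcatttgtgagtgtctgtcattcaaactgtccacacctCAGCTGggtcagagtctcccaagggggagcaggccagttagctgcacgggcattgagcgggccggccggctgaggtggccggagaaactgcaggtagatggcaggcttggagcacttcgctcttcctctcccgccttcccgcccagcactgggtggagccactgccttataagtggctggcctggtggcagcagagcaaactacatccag
Sema3d holds 1 CACCTG and Sema3g holds 1 CAGCTG, and none of the 3 motifs is in these windows of Sema3a, Sema3e and Sema3c. The base composition differed, with 78.4% G and C before Sema3c against 40.8% before Sema3a. Over all 32851 windows of this length, 13% hold CAGCTG, 17.2% CACCTG and 0.417% TTTGGCGC. Of 37 windows that matched 26 of the 31 members, CAGCTG was in 6 (Plxnb3, Sema3g, Sema4d, Sema4g, Sema6c and Sema7a), CACCTG in 5 (Plxnb2, Sema3d, Sema4c, Sema4f and Sema6d) and TTTGGCGC in 0. A match is a run of letters and not a binding site.

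Sema3e, a ligand of Plxnd1 known for guiding vessels, had the largest difference of any member at 144 h. Its level was 6.92, 7.63 and 7.78 at 0 h, 4.91, 4.96 and 6.10 at 48 h, 4.90, 3.69 and 5.14 at 96 h and 5.67, 4.44 and 4.37 at 144 h. All 9 late arrays were below all 3 arrays of 0 h. The difference from 0 h was −2.12 at 48 h (SE 0.33, adjusted p = 3.71e-06), −2.86 at 96 h (SE 0.33, adjusted p = 7.32e-09) and −2.61 at 144 h (SE 0.33, adjusted p = 3.8e-08). At 24 h the arrays read 6.63, 6.61 and 6.89 and the difference of −0.73 was not called. The other 3 probe sets of Sema3e were lower at 144 h too, with differences of −1.47, −2.10 and −3.03.

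Sema3a, the archetypal repellent of axons, which signals through Nrp1 and class A plexins, read 7.83, 7.93 and 8.06 at 0 h, 6.29, 5.62 and 6.89 at 48 h, 5.89, 5.42 and 6.34 at 96 h and 7.02, 5.80 and 6.27 at 144 h. The late arrays again lay below those of 0 h. The difference from 0 h was −1.68 at 48 h (SE 0.28, adjusted p = 1.39e-05), −2.06 at 96 h (SE 0.28, adjusted p = 2.61e-07) and −1.58 at 144 h (SE 0.28, adjusted p = 2.32e-05). A second probe set of Sema3a fell by 1.45 at 144 h, and a dim one differed by −0.20.

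Sema3c, which attracts or repels depending on the cell and uses either neuropilin, had a rise before induction as well as a later fall. It read 6.13, 6.10 and 6.67 at 0 h against 4.94, 4.90 and 4.99 at −24 h, a difference of 1.35 (SE 0.37, adjusted p = 0.00861), whose call was lost without 0 h replicate 3 (adjusted p = 0.0562). Levels at 3 h were 7.16, 6.54 and 7.25. At 96 h they were 5.24, 4.38 and 4.90, a difference of −1.46 against 0 h (SE 0.37, adjusted p = 0.00183). The difference of −1.25 at 48 h (adjusted p = 0.00914) was lost without 0 h replicate 3 or without 48 h replicate 1, with an adjusted p of up to 0.0757. At 144 h the arrays read 6.43, 4.45 and 4.88 and overlapped with 0 h. The call at 144 h (−1.05, SE 0.37, adjusted p = 0.028) was lost without 0 h replicate 3, 144 h replicate 2 or 144 h replicate 3 (adjusted p up to 0.271) and after centring on housekeeping genes (0.0518). Its other, dim probe set differed by −0.34.

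Sema3d, expressed in embryonic heart and vessels, read 5.85, 6.03 and 6.59 at 0 h, 3.98, 3.84 and 5.33 at 48 h and 4.81, 4.17 and 4.84 at 96 h. Both later times lay wholly below 0 h. The difference was −1.78 at 48 h (SE 0.47, adjusted p = 0.0036) and −1.55 at 96 h (SE 0.47, adjusted p = 0.0088), the second lost without 0 h replicate 3 or 96 h replicate 2 (adjusted p up to 0.0591). At 144 h it read 7.0, 4.70 and 5.05, and the difference of −0.57 was not called (adjusted p = 0.417) unless 144 h replicate 1 was left out (−1.29). Before the fall it stood at 7.54, 7.77 and 7.37 at 6 h, above all arrays of 0 h, a difference that was not called. A second, dimmer probe set of Sema3d did not share the late fall, with −0.31 at 48 h and 0.35 at 144 h, neither called.

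At each late time 1 extreme lay on the same array for all 4 genes of chromosome 5, and the other extreme was split. The lowest array at 48 h was replicate 1 for 2 genes and replicate 2 for 2. Replicate 3 was highest at 96 h, and replicate 2 lowest at 144 h, for 3 of 4 genes. Replicate 3 was the highest of the 48 h arrays for 4 of 4 genes, replicate 2 the lowest of the 96 h arrays for 4 of 4, and replicate 1 the highest of the 144 h arrays for 4 of 4. Nrp1 followed the same order, with replicate 3 highest at 48 h (8.50), replicate 2 lowest at 96 h (7.17) and replicate 1 highest at 144 h (8.49). The 9 genes of the culture check did not share 1 order. Myf5, from the myoblast and myotube markers, had the same order as the 4 genes. Its highest array was replicate 3 at 48 h (6.61) and replicate 1 at 144 h (6.45). At 96 h its lowest array was replicate 2. Mki67, a proliferation marker, was highest in replicate 3 at 48 h (8.24), lowest in replicate 2 at 96 h (5.36) and highest in replicate 1 at 144 h (6.68). Top2a, another proliferation marker, was also lowest in replicate 2 at 96 h (7.13), but at 48 h it was highest in replicate 1 (9.75, with 9.70 in replicate 3) and at 144 h lowest in replicate 1 (6.81). Ckm was lowest in replicate 3 at 48 h (10.5), 96 h (10.5) and 144 h (10.5), with highest arrays of 11.5, 11.8 and 11.6, and Myod1, Myog, Des and Acta1 were lowest in replicate 3 at each of these times as well. The part of dividing or less differentiated cells in the semaphorin values was not tested.

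Other genes lie among these 4 on chromosome 5. RefSeq lists 18 other protein-coding genes between Sema3d and Sema3c, of which 5 were measured. At 48 h 2 of the 5 were lower, Hgf, which encodes hepatocyte growth factor (−3.14, SE 0.25, adjusted p = 2.17e-12), and Cacna2d1, a subunit of muscle calcium channels (−1.35, SE 0.42, adjusted p = 0.0134). The other 3, Speer3, Pclo and Speer4f1, were not called. Of all genes 26.7% were called at 48 h and 14.3% were lower. At 144 h Hgf was still lower than at 0 h (−3.18, adjusted p = 7.53e-13), while Cacna2d1 was not called (−0.66, adjusted p = 0.266).

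Sema3g, a ligand of Nrp2 known from endothelial cells, went the other way. It read 3.67, 3.88 and 3.68 at 0 h, 5.17, 4.76 and 5.03 at 24 h, 5.83, 4.92 and 4.96 at 48 h and 4.60, 5.06 and 4.70 at 144 h. Every array from 24 h on was above every array of 0 h, where the level was below the background mark of 4.41. The rise was 1.24 at 24 h (SE 0.21, adjusted p = 3.75e-05), 1.49 at 48 h (SE 0.21, adjusted p = 5.42e-07) and 1.04 at 144 h (SE 0.21, adjusted p = 0.000115). All 6 endothelial markers stayed like background, with a highest group mean of 3.66 and a summed linear level of 58.7 to 66.6 by group. The level at 24 h, against 4.26, 3.85 and 4.24 at 12 h, was higher by 0.87 (adjusted p = 0.0173), a comparison chosen after seeing the data and lost without 12 h replicate 2, 24 h replicate 1 or 24 h replicate 3 (adjusted p up to 0.217).

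Sema3b and Sema3f, which bind neuropilins and were first described as candidate tumour suppressors, were not called at any time against 0 h without the block. Sema3b read 7.54, 7.38 and 7.14 at 0 h against 6.34, 7.06 and 6.39 at −24 h, a rise of 0.75 (SE 0.24, adjusted p = 0.0256) that was lost without −24 h replicate 1 or 3 or 0 h replicate 1 or 2 (adjusted p up to 0.175). At 144 h it stood at 7.75, 7.94 and 7.71, higher than at −24 h by 1.20 (SE 0.24, adjusted p = 6.81e-05), while its difference of 0.45 from 0 h was not called. At 96 h, with a difference of 0.41, it was called with the block (adjusted p = 0.0256). The block also called it higher at 144 h than at 0 h. Of its other probe sets, 1 was higher than at 0 h at 96 h (0.48) and at 144 h (0.50), with p adjusted over all probe sets of 0.00294 and 0.00226, and 1 was not called. Group means of Sema3f stayed within 0.28 of each other over the 16 groups, from 8.39 to 8.67. Its probe set carries a suffix that marks possible cross-hybridisation. With the mean of its 3 probe sets Sema3f was called higher at 144 h than at −24 h.

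**Figure D2:**
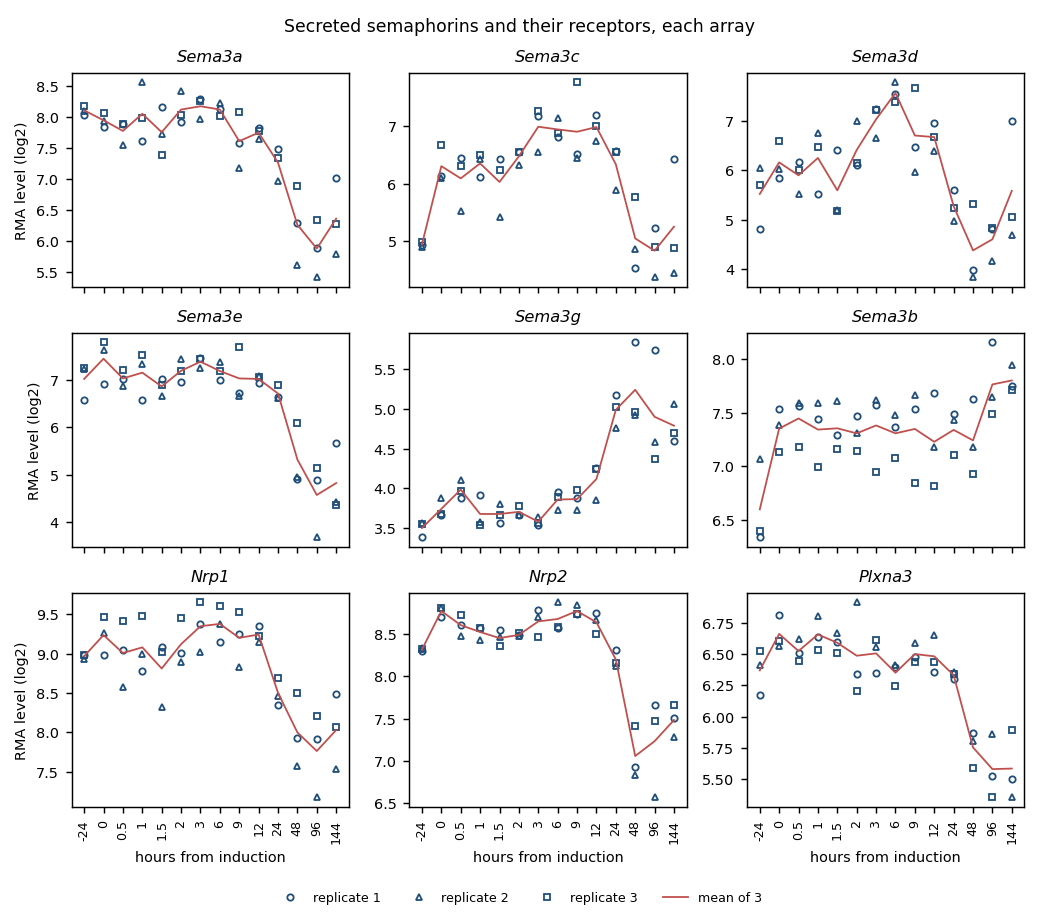
RMA level (log2) of 6 secreted semaphorins, both neuropilins and Plxna3 on each array without cycloheximide, by hours from induction (equally spaced steps, not a linear time axis), with the mean of 3 replicates as a line. Sema3a, Sema3c, Sema3d, Sema3e, Nrp1, Nrp2 and Plxna3 drop between 12 h and 48 h, Sema3g climbs over the same time, and at 144 h replicate 1 of Sema3c and Sema3d stands well above the others.

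Without the block, Sema6d had the earliest call among the membrane-bound semaphorins. Sema6d, a ligand of Plxna1 known from heart development, read 6.33, 5.99 and 6.21 at 0 h, 5.37, 5.49 and 5.11 at 9 h, 5.55, 5.06 and 4.94 at 12 h, 4.84, 4.73 and 5.09 at 24 h and 4.99, 4.32 and 5.13 at 144 h. All of the later arrays were below those of 0 h. The difference was −0.85 at 9 h (adjusted p = 0.0302), which did not hold when 0 h replicate 1, 2 or 3 or 9 h replicate 1 or 3 was left out (adjusted p up to 0.12), and −0.99 at 12 h (adjusted p = 0.00518), lost without 12 h replicate 3 (0.0578). At 24 h it was −1.29 (SE 0.21, adjusted p = 3.47e-05) and at 144 h −1.36 (SE 0.21, adjusted p = 2.85e-06). Its other 3 probe sets, with means of 3.24, 3.41 and 3.57 that lie below the background mark, did not fall.

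Sema6a, a ligand of Plxna2 and Plxna4, rose before induction and, without the block, was called at no single time after it. With the block it was higher at 24 h than at 0 h (0.73, adjusted p = 0.0186). It read 5.96, 5.60 and 6.13 at 0 h against 4.20, 4.56 and 4.47 at −24 h, without overlap, a rise of 1.49 (SE 0.28, adjusted p = 0.000178). At 24 h it was at 6.59, 6.56 and 6.72 and at 144 h at 6.67, 6.46 and 6.14. The F-test over all times called it (adjusted p = 0.000256), and at 144 h it was above −24 h by 2.01 (SE 0.28, adjusted p = 1.93e-07). Its other 2 probe sets did not share the rise before induction, with 0.23 and −0.05.

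Sema4c, a ligand of Plxnb2, rose before induction and ended below 0 h. It read 7.90, 7.89 and 8.03 at 0 h against 6.70, 7.30 and 7.15 at −24 h, a rise of 0.89 (SE 0.15, adjusted p = 3.23e-05). Levels were 7.23, 7.21 and 7.66 at 1 h and 8.03, 8.41 and 8.39 at 9 h, neither called against 0 h without the block. With the block it was called lower than at 0 h at 1 h, 1.5 h and 48 h. At 144 h the level was 7.39, 7.21 and 7.19, below 0 h (difference −0.67, SE 0.15, adjusted p = 0.000415).

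Sema5a, a ligand of Plxnb3, read 4.89, 5.02 and 5.68 at 0 h, 4.41, 4.09 and 4.42 at 48 h and 4.87, 4.35 and 4.09 at 144 h, both later groups below 0 h. The differences of −0.89 at 48 h (SE 0.23, adjusted p = 0.00267) and of −0.76 at 144 h (SE 0.23, adjusted p = 0.00911) both leaned on 0 h replicate 3, the highest of its group. Without it the adjusted p was 0.0514 at 48 h and 0.128 at 144 h, where leaving out 144 h replicate 3 also ended the call (0.0869). At 6 h and 12 h Sema5a stood at 5.53 to 5.76 and 5.35 to 5.78, not called against 0 h, and at 24 h it was below 12 h (difference −0.84, adjusted p = 0.0496), a comparison chosen after seeing the data that was lost without any 1 of 5 of its 6 arrays (all but 12 h replicate 1, adjusted p up to 0.231).

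Changes of the remaining membrane-bound members were small. Sema4d, the ligand of Plxnb1, read 4.33, 4.53 and 4.38 at 144 h against 3.82, 4.07 and 4.08 at 0 h, higher by 0.42 (SE 0.12, adjusted p = 0.00415), close to the background mark. Its other probe sets disagreed, with 1.19 and −0.11. Sema4b read 5.79, 5.78 and 5.80 at 144 h against 6.21, 6.14 and 6.06 at 0 h, lower in the deposited values (difference −0.35, SE 0.11, adjusted p = 0.0127). This call was lost without 0 h replicate 1 (adjusted p = 0.0572), after quantile normalization (0.191) and after housekeeping centring (0.0577). Sema5b was called at 96 h alone, higher by 0.32 (adjusted p = 0.0464) with overlapping arrays and levels like background, and the call was lost without any 1 of 5 of the 6 arrays (all but 96 h replicate 1, adjusted p up to 0.364). Sema7a, which signals through integrin beta 1 and Plxnc1, was called by the F-test (adjusted p = 0.00151) but at no single time, with group means without drug from 8.05 at 144 h to 8.87 at 3 h.

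**Figure D3:**
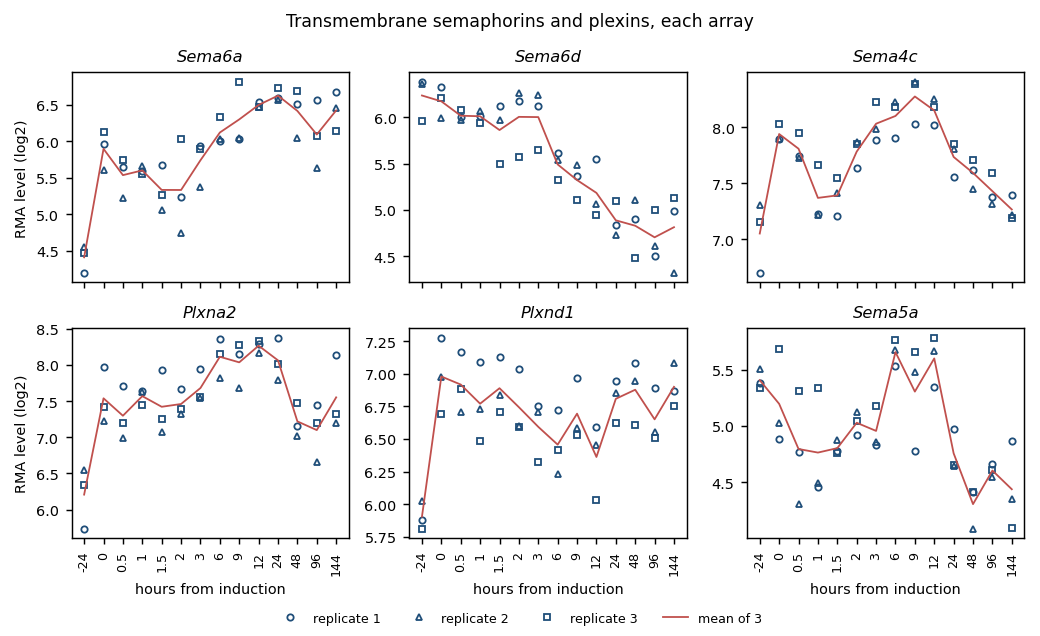
RMA level (log2) of Sema6a, Sema6d, Sema4c, Sema5a, Plxna2 and Plxnd1 on each array without cycloheximide, by hours from induction (equally spaced steps), with the mean of 3 replicates as a line. Sema6a, Sema4c, Plxna2 and Plxnd1 are lowest or near lowest at −24 h, and Sema6d declines from 6 h on.

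Both neuropilins fell late. Nrp2, co-receptor of Sema3c, Sema3f and Sema3g, read 8.71, 8.81 and 8.81 at 0 h, 8.31, 8.12 and 8.16 at 24 h, 6.93, 6.83 and 7.41 at 48 h, 7.66, 6.57 and 7.47 at 96 h and 7.50, 7.28 and 7.66 at 144 h. Each of the later groups lay wholly below 0 h. The difference from 0 h was −0.57 at 24 h (SE 0.16, adjusted p = 0.0093), −1.72 at 48 h (SE 0.16, adjusted p = 3.99e-11) and −1.29 at 144 h (SE 0.16, adjusted p = 1.5e-08). At 48 h it was below 24 h (−1.15, adjusted p = 4.32e-06, chosen after seeing the data). At 144 h it was 0.43 above 48 h, which was not called. Before induction it was higher at 0 h than at −24 h (8.30, 8.33 and 8.32) by 0.46 (adjusted p = 0.0446), lost without any 1 of the 6 arrays (adjusted p up to 0.133). Its other probe sets did not share this call. A dim one, with a mean of 4.16, was lower at 0 h than at −24 h (−0.57, adjusted over all probe sets 0.00771). The others differed by 0.30 and 0.37, neither called.

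Nrp1, co-receptor of Sema3a, read 8.98, 9.26 and 9.47 at 0 h, 7.92, 7.58 and 8.50 at 48 h, 7.91, 7.17 and 8.20 at 96 h and 8.49, 7.53 and 8.07 at 144 h. All late arrays were below those of 0 h. The difference from 0 h was −1.24 at 48 h (SE 0.28, adjusted p = 0.000703), −1.47 at 96 h (SE 0.28, adjusted p = 5.53e-05) and −1.21 at 144 h (SE 0.28, adjusted p = 0.000708). All 3 other probe sets of Nrp1 were lower at 144 h as well (−0.75 to −1.40), as were 2 of the other 3 of Nrp2 (−0.83 and −0.87).

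Of the 9 plexins, 1 was called at 144 h against 0 h. Plxna3, which acts with Nrp2 in axon pruning, read 6.81, 6.56 and 6.60 at 0 h, 5.87, 5.80 and 5.59 at 48 h and 5.50, 5.36 and 5.90 at 144 h. Its late arrays did not overlap with those of 0 h. The difference was −0.91 at 48 h (SE 0.14, adjusted p = 5.7e-06) and −1.07 at 144 h (SE 0.14, adjusted p = 1.43e-07), and a second probe set gave −0.85 at 144 h. Plxnb3, receptor of Sema5a, rose at 48 h to 6.00, 5.57 and 5.27, against 4.90, 4.87 and 4.97 at 0 h (0.70, SE 0.13, adjusted p = 8.11e-05). By 144 h it was at 5.30, 5.09 and 5.20, lower than at 48 h (difference −0.42, adjusted p = 0.0345), the only member called in that comparison (against 10.3% of all genes). This last call was lost without 48 h replicate 1 or 2 or 144 h replicate 2 or 3 (adjusted p up to 0.38), and the probe set carries the suffix that marks possible cross-hybridisation.

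Plxna2 and Plxnd1 rose before induction. Plxna2, receptor of Sema6a, read 7.97, 7.23 and 7.41 at 0 h against 5.74, 6.55 and 6.34 at −24 h, a rise of 1.33 (SE 0.26, adjusted p = 0.000327) that 2 of its other 3 probe sets shared (1.30 and 0.93). It reached 8.30, 8.17 and 8.33 at 12 h and was called by the F-test (adjusted p = 0.00237), though at no single time against 0 h without the block. Plxnd1, receptor of Sema3e, read 7.28, 6.97 and 6.69 at 0 h against 5.88, 6.02 and 5.81 at −24 h, a rise of 1.08 (SE 0.19, adjusted p = 7.65e-05). At 144 h it was still at 6.87, 7.08 and 6.75, above −24 h by 1.00 (SE 0.19, adjusted p = 4.57e-05). With the block Plxnd1 was lower than at 0 h at 6 h (−0.52, adjusted p = 0.00588), 12 h (−0.62, adjusted p = 0.000289) and 96 h (−0.33, adjusted p = 0.0174). The other 5 plexins, Plxna1, Plxna4, Plxnb1, Plxnb2 and Plxnc1, were called in no comparison without the block.

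The day before induction held 7 called members, Sema6a, Sema3c, Plxna2, Plxnd1, Sema4c, Sema3b and Nrp2, all higher at 0 h than at −24 h, against 13.1% of all genes called, 7.26% called higher and 5.86% called lower. The arrays did not overlap for any of the 7, which were picked by their call on these same arrays. How many of all genes had no overlap was not counted. The number of calls was 5 or 6 without any 1 array. Over the same day Myog, the transcription factor that opens terminal differentiation, rose by 4.51 and Acta1 by 3.11, both harvests being in growth medium. Over the whole course, from −24 h to 144 h, 13 members were called, 5 higher and 8 lower, against 34.8% of all genes, 17.8% higher and 17% lower. Sema6a (2.01), Plxna2 (1.34), Sema3g (1.28), Sema3b (1.20) and Plxnd1 (1.00) ended higher, and Sema3e (−2.19), Sema3a (−1.74), Sema6d (−1.42), Sema5a (−0.97), Nrp1 (−0.94), Nrp2 (−0.84), Plxna3 (−0.78) and Sema4b (−0.41) ended lower. The call for Nrp1 was lost without 144 h replicate 2 (adjusted p = 0.0836).

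Set against 24 h, a comparison chosen after seeing the data, 6 members were called at 48 h, against 3.89% of all genes, 2.01% lower and 1.88% higher. Sema3e (−1.39), Sema3c (−1.28), Nrp2 (−1.15), Sema3a (−1.0) and Plxna3 (−0.58) fell and Plxnb3 rose (0.53). The call for Nrp2 held without any 1 array. That for Sema3e (adjusted p = 0.00826) was lost without 24 h replicate 3 or 48 h replicate 1 or 2 (up to 0.0991). Those for Sema3c (0.038) and Sema3a (0.0333) were each lost without 24 h replicate 1 or 3 or 48 h replicate 1 or 2 (up to 0.28). Plxna3 (0.0129) lost its call without 24 h replicate 2 or 3 or 48 h replicate 3 (up to 0.0643), and Plxnb3 (0.0128) without 24 h replicate 1 or 2 or 48 h replicate 1 (up to 0.258). The count was 2 without 24 h replicate 3 or 48 h replicate 1, 3 without 24 h replicate 1 or 48 h replicate 2, and 4 without 24 h replicate 2. Between 12 h and 24 h, also chosen after seeing the data, 2 members were called, Sema3g higher and Sema5a lower, against 1.34% of all genes, 1.09% higher and 0.242% lower (5 members with the block, and 0 without 12 h replicate 2, 24 h replicate 1 or 24 h replicate 3).

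**Figure D4:**
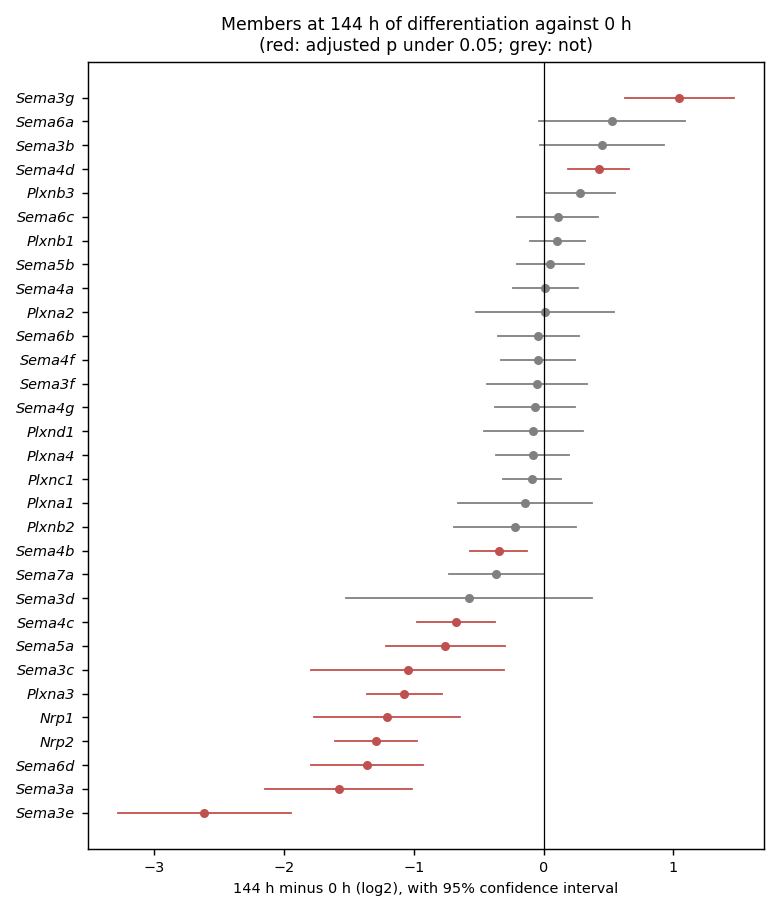
Difference in RMA level (log2) between 144 h and 0 h for each of the 31 members, with the 95% confidence interval of the limma model, in red where the adjusted p is under 0.05. Sema3g and Sema4d lie to the right of 0 in red, 10 members from Sema4b (−0.35) to Sema3e (−2.61) lie to the left in red, and 19 are grey.

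Cycloheximide at 1 h of differentiation raised 3 members against untreated cells of 1 h, where 24.6% of all genes were called and 24.2% were called higher. The median difference was 0.16 over members and 0.20 over all genes, and it was −0.01 over all genes after the arrays were quantile normalized again, which left 1 member called. Sema4c read 8.05, 8.21 and 8.39 with the drug at 1 h against 7.23, 7.21 and 7.66 without, a rise of 0.85 (SE 0.15, adjusted p = 4.75e-05) that kept its call after quantile normalization (0.54, adjusted p = 0.0364). Sema4b read 6.93, 6.91 and 6.89 against 6.21, 6.10 and 6.14, a rise of 0.76 (adjusted p = 1.91e-06) that did not (0.39, adjusted p = 0.0515). The untreated cells of 1 h were themselves low in Sema4c, with a mean of 7.37 against 7.94 at 0 h and 8.22 at 1 h with the drug. Plxnb3 differed by 0.45 (adjusted p = 0.011) with overlapping arrays. Its call was lost without 1 h replicate 2 or 3 or cycloheximide replicate 2 or 3 (adjusted p up to 0.0735) and after quantile normalization (0.64).

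At 3 h of differentiation the drug changed 9 members, 7 lower and 2 higher, against 34.4% of all genes, of which 3.42% were lower and 30.9% higher. With the block 16 were called, 8 higher and 8 lower, and without 3 h replicate 2 or without cycloheximide replicate 2 at 3 h the count was 5. It was 6 without 3 h replicate 1 or cycloheximide replicate 3. The median difference was 0.00 over members and 0.19 over all genes (−0.01 over all genes after quantile normalization). In the deposited values the 7 members that fell moved against the direction of the median gene. After quantile normalization the median gene did not rise.

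Sema4c and Sema7a had the largest differences. Sema4c read 5.80, 6.27 and 6.32 with the drug at 3 h against 7.88, 7.98 and 8.23 without it, a difference of −1.90 (SE 0.15, adjusted p = 4.51e-13). Sema7a read 7.36, 7.22 and 7.26 against 8.86, 8.92 and 8.82, a difference of −1.59 (SE 0.18, adjusted p = 4.77e-09). Both groups of arrays were far apart, and both falls grew after quantile normalization, to −2.27 and −1.95. A second, dim probe set of Sema7a was lower too (−0.51, adjusted over all probe sets 0.00861).

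The other 5 that fell were smaller and less firm. Sema6a read 5.00, 4.51 and 5.23 against 5.94, 5.38 and 5.90 (−0.82, SE 0.28, adjusted p = 0.0202) and Sema6d 5.18, 5.63 and 5.12 against 6.13, 6.24 and 5.64 (−0.69, SE 0.21, adjusted p = 0.0106). Nrp2 read 8.21, 8.28 and 8.10 against 8.79, 8.70 and 8.47 (−0.46, SE 0.16, adjusted p = 0.0207). None of these 3 overlapped with the untreated arrays, but each lost its call without some 1 array. For Sema6a these were 3 h replicates 1 and 3 and cycloheximide replicate 2 (adjusted p up to 0.132), for Sema6d 3 h replicate 2 and cycloheximide replicate 3 (up to 0.066), and for Nrp2 3 h replicates 1 and 2 and cycloheximide replicate 3 (up to 0.0946). Sema5a (−0.58, adjusted p = 0.0455) lost its call without any 1 of 5 of the 6 arrays (all but cycloheximide replicate 3, up to 0.209) and Sema4d (−0.30, adjusted p = 0.0406) without any 1 of 5 (all but 3 h replicate 1, up to 0.204). Both group means of Sema4d, 3.86 with the drug and 4.16 without, were below the background mark, and a second probe set of the gene was higher with the drug (0.51, adjusted over all probe sets 0.00302).

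Sema6b (4.68, 4.59 and 4.42 against 3.73, 4.05 and 4.15, a difference of 0.58, adjusted p = 0.00284) and Sema4b (0.35, adjusted p = 0.01) were higher with the drug, and both lost the call after quantile normalization (adjusted p = 0.0896 and 0.99). The untreated arrays of Sema6b were all below the background mark of 4.41, so the size of its difference is uncertain. The call for Sema4b was also lost without 3 h replicate 3 or cycloheximide replicate 2 (up to 0.0653). No secreted semaphorin and no plexin was called at 3 h without the block.

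The drug's effect differed between the times for 3 members, all more negative at 3 h, against 4.29% of all genes called, 1.64% in that direction and 2.65% in the other. Its effect at 3 h minus that at 1 h was −2.75 for Sema4c (SE 0.21, adjusted p = 5.44e-12), whose level was above the untreated cells at 1 h and below them at 3 h. It was −1.66 for Sema7a (SE 0.25, adjusted p = 2.58e-05), which read 8.88, 8.65 and 8.97 with the drug at 1 h against 8.74, 8.79 and 8.76 without. For Nrp2 it was −0.76 (SE 0.22, adjusted p = 0.0374), lost without 10 of the 12 arrays taken 1 at a time (all but 3 h replicate 3 and cycloheximide replicate 2 at 3 h, adjusted p up to 0.117) and after housekeeping centring (0.129).

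**Figure D5:**
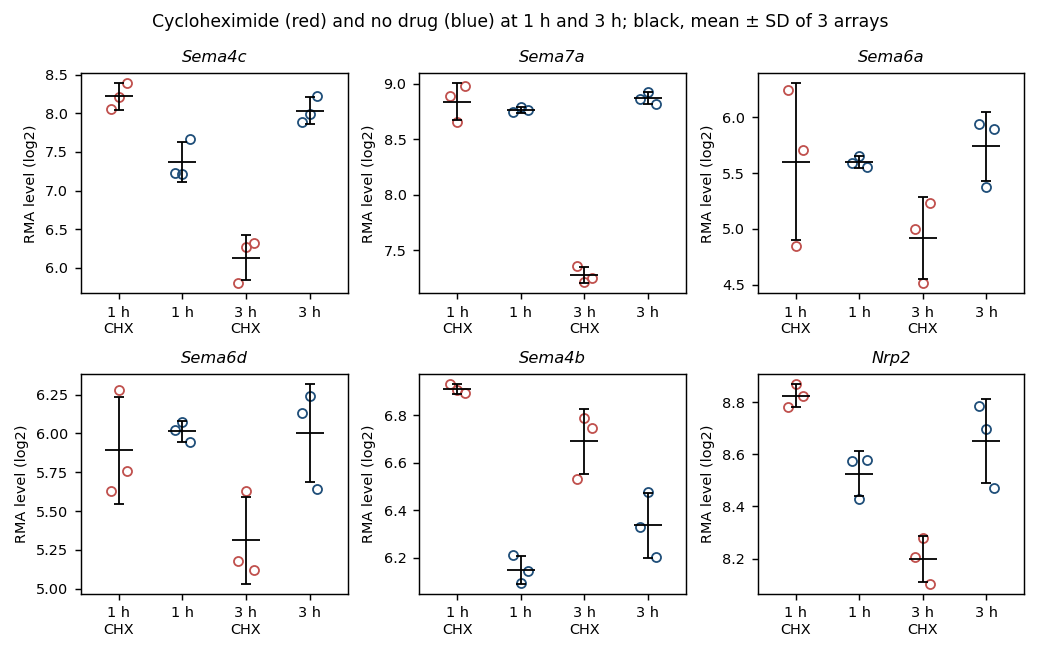
RMA level (log2) of 6 members on each array with cycloheximide (CHX, red) and without (blue) at 1 h and 3 h of differentiation, with the mean and SD of 3 arrays in black. At 3 h the drug arrays of Sema4c, Sema7a, Sema6a, Sema6d and Nrp2 lie below the untreated ones, and Sema4c lies above them at 1 h.

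Partners of the pathway were counted against the share of all genes, which at 144 h against 0 h was 28.4% called, 14.9% lower and 13.5% higher. Of 16 other receptors and co-receptors, 5 fell and 2 rose at 144 h against 0 h, with a median of −0.07 against 0.04 over all genes. L1cam, the adhesion molecule that joins Nrp1 in the response to Sema3a, fell (−2.08, SE 0.18, adjusted p = 1.09e-11), Robo1 (−2.04, SE 0.21, adjusted p = 8.03e-10) and the integrin subunit Itgav (−0.94, SE 0.21, adjusted p = 0.000614), while the receptor kinase Erbb2 rose by 0.99 (SE 0.25, adjusted p = 0.00204). Of 36 measured intracellular effectors of plexins, 13 fell and 2 rose, with a median of −0.22. Dpysl2 and Dpysl3, the cytoskeletal CRMP proteins that relay Sema3a signals, fell (−1.41, adjusted p = 3.01e-10, and −1.34, adjusted p = 6.81e-10), as did Rasa1, a GTPase-activating protein of Ras (−1.36, adjusted p = 0.00365), and Rnd3, a plexin-binding GTPase (−1.10, adjusted p = 3.42e-07).

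Of 8 VEGF ligands and receptors that bind neuropilins, 2 fell, Pgf (−0.80, adjusted p = 0.00982) and Vegfd (−0.69, adjusted p = 0.00687). Of 13 other guidance ligands and receptors, 3 fell, among them Unc5c (−1.34, adjusted p = 6.7e-07), and 2 rose, of which Ntn4 changed by 1.88 (adjusted p = 1.75e-11). Of all genes 28.4% were called in that comparison, 14.9% lower and 13.5% higher, and the 2 of 8 called in the VEGF list were near that share. Some genes are in more than 1 list, Robo1 and Kdr among them.

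With cycloheximide at 3 h, the effectors held 10 higher and 3 lower of 36, with Rnd3 higher by 1.88 (adjusted p = 1.47e-12) and Mical1, the oxidoreductase that disassembles actin, lower (−1.57, adjusted p = 3.53e-12). The VEGF list held 4 higher of 8, Vegfc (1.31), Vegfa (1.12), Pgf (0.86) and Kdr (0.36). The co-receptors held 4 higher and 1 lower (Met, −0.73) of 16, and the other guidance genes 2 higher of 13. Of all genes 30.9% were higher and 3.42% lower in that comparison. At 1 h the counts were 7 higher and 1 lower for the effectors, 2 higher for the co-receptors, 2 higher for the VEGF list (Vegfa and Pgf) and 1 higher for the other guidance genes, beside 24.2% of all genes higher and 0.418% lower. Before induction, 0 h against −24 h, 5 effectors were higher and 3 lower, 1 co-receptor was higher (Robo1, 1.29), no VEGF gene was called and 4 other guidance genes were higher, beside 7.26% of all genes higher and 5.86% lower.

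Of the 31 members, 10 were called in no comparison without the block: Sema3f, Sema4a, Sema4f, Sema4g, Sema6c, Plxna1, Plxna4, Plxnb1, Plxnb2 and Plxnc1. Their largest difference was −0.87, for Plxna1 in the difference of the drug's effects, and their lowest adjusted p was 0.0515, for Plxna4 with cycloheximide at 3 h. Plxna1 read 7.95, 7.51 and 7.14 at 12 h against 7.20, 6.90 and 6.77 at 0 h, with replicate 1 above replicate 3 in all 16 groups. With the replicate block it was called at 9 h, 12 h and 24 h, each time higher than at 0 h (0.48, 0.57 and 0.51). Plxnb2, the receptor of Sema4c, kept group means between 9.55 and 9.82 and had replicate 3 as its lowest array in every group. With the block Plxnb2 was called lower than at 0 h at 6 h and at 144 h. Plxnb1, the receptor of Sema4d, kept group means between 6.50 and 6.97. With cycloheximide at 3 h the block called Plxnb1, Plxna4, Plxnc1, Sema4f and Sema4g higher and Plxna1 lower. With the drug at 1 h it called Plxna1, Plxna4 and Plxnc1 higher. Sema6c was called higher with the block at 96 h than at 0 h.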

How the data were processed

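The deposited values are log2 levels per probe set, made by the authors from 48 MOE430v2 arrays with RMA, per the submitters' processing notes; its version is not given in the sources used here. Of 45101 probe sets, 64 controls were left out and 34945 carried 1 gene symbol. The brightest such probe set, by its mean over the 48 arrays, stood for each of 18193 genes. Limma 3.58.1 in R 4.3.3 fitted 1 coefficient per group over all arrays, with moderated variances and Benjamini-Hochberg adjustment over all genes, and calls were made at 0.05. The fit was tested on simulated data. Members and lists were chosen with earlier results of these data known, and 24 h against 12 h and 48 h against 24 h were chosen after seeing the data. Array values are given for members called by the F-test, at 144 h, before induction or with cycloheximide, and list genes are named by size, at most 4 a list.

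The replicate numbers of the labels recur in every group. The cultures of a group came from successive passages, but the labels do not say that a number is the same passage in every group. Same-numbered arrays correlated above 0.1 in their deviations from the group means, for every number, in 13 of 19 comparisons of groups. The correlation was not above 0.1 for every number in 0 h against −24 h, 1 h against 0 h, 144 h against 0 h, 48 h or −24 h, and cycloheximide at 1 h. The main model ignores this pairing, and only the replicate block takes it into account. With the block, 13 members were called at 48 h and 17 at 96 h against 0 h, beside 12 and 13 without it. Alternatives were the replicate block, quantile normalization again, centring on 13 housekeeping genes, the mean of a gene's probe sets, leaving out probe sets that may cross-hybridise or dim genes, fitting only the arrays compared, and leaving out each array. The number of arrays, 3 a group, limits the precision, and p-values measure the spread between passages of 1 line.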

Additional observations from a re-analysis of the deposited data

Results flagged for a closer look

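The effect of cycloheximide differed between 3 h and 1 h of differentiation for 3 members by a test of the difference itself in limma. The effect at 3 h minus that at 1 h was −2.75 for Sema4c (adjusted p = 5.44e-12), −1.66 for Sema7a (adjusted p = 2.58e-05) and −0.76 for Nrp2 (adjusted p = 0.0374). No cells of 0 h with the drug were analysed here, so drug exposure before induction and after it cannot be told apart.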

How the results depend on the processing

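Over 103 called pairs of a member and a comparison, 30 lost the call without some 1 array and none changed sign. Leaving out 1 array at a time gave 5 to 6 called members for 0 h against −24 h, 0 to 1 at 1 h and again at 9 h, 0 to 2 at 12 h, 3 throughout at 24 h, 10 to 12 at 48 h, 10 to 14 by 96 h, 10 to 13 by 144 h, 0 to 3 for 144 h against 48 h, 12 to 13 for 144 h against −24 h, 0 to 2 for 24 h against 12 h, 2 to 6 for 48 h against 24 h, 2 to 4 and 5 to 9 with cycloheximide at 1 h and 3 h, 2 to 3 for the difference of the drug effects and 17 to 19 by the F-test. The replicate block gave 1 at 1 h and 1.5 h, 2 members at 6 h and 9 h, then 4 by 12 h, and 6 by 24 h, 4 for 144 h against 48 h, 5 for 24 h against 12 h, 7 and 16 with cycloheximide at 1 h and 3 h and 6 for the difference of the drug effects; it ended no call. With the mean of a gene's probe sets the counts were 1 at 6 h, then 0 for 9 h, 2 for 12 h, and 7 for 24 h, 4 for 144 h against 48 h, 1 for 24 h against 12 h, 3 for 48 h against 24 h and 9 with cycloheximide at 1 h. That setting also reversed Sema3f at 144 h against −24 h (0.39, adjusted p = 0.00727) and Sema4d with cycloheximide at 3 h (0.13, adjusted p = 0.241). Fitting only the arrays compared gave 0 at 9 h, 8 at 24 h, 0 for 144 h against 48 h and 4 for 24 h against 12 h. Without probe sets that may cross-hybridise the counts were 0 for 144 h against 48 h and 1 for 24 h against 12 h, housekeeping centring gave 1 for 24 h against 12 h, and quantile normalization gave 1 with cycloheximide at 1 h. Housekeeping centring moved the median gene by −0.20 with cycloheximide at 1 h, by 0.20 for the difference of the drug effects and by 0.12 for 144 h against −24 h. Beyond these constructions the cause was not tested.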
